A study of Homo sapiens with 12 samples.

Results

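The factors of nonsense-mediated mRNA decay (NMD) were followed in HEK293T cells, a human embryonic kidney line. They were taken by gene name from the count tables and are UPF1, UPF2, UPF3A, UPF3B, SMG1, SMG5, SMG6, SMG8 and SMG9, 9 of the 27011 genes listed. The genotypes were wild type (WT), a line labelled 4EHP-null and a line labelled GIGYF1/2-null, which lacks GIGYF1 together with GIGYF2 by its label, all on the HEK293T background and with no treatment named in the labels. Each genotype was plated on 15 cm dishes 24 h before harvest and gave 2 libraries of mRNA (RNA-seq) and 2 of ribosome-protected mRNA fragments, called footprints (Ribo-seq), 12 libraries in all. The series record calls the libraries of a genotype biological replicates. The labels do not say whether they were separate cultures or clones, and the p-values therefore describe the spread between these libraries, which may be technical.

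NMD degrades mRNAs on which a ribosome terminates too early or too far from the poly(A) tail, and it also sets the level of many normal transcripts. The helicase UPF1 is bound through UPF2 and UPF3B to an exon junction complex left downstream of the stop codon, and the kinase SMG1, held by SMG8 and SMG9, phosphorylates it. Phosphorylated UPF1 recruits SMG6, an endonuclease that cuts near the stop codon, and SMG5, which leads to deadenylation and decapping. Several of these factors have mRNAs that are themselves targets of the pathway. 4EHP is a cap-binding protein that blocks translation together with its partners GIGYF1 and GIGYF2.

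Library totals were 26143118 to 38175701 counts in RNA-seq and 6536493 to 10816080 in Ribo-seq. EIF4E2, which encodes 4EHP, was at 123 and 123 CPM (counts relative to the library total, scaled between libraries by the TMM method of edgeR) in the WT mRNA libraries and at 51.0 and 46.7 CPM in the 4EHP-null ones, and GIGYF1 mRNA was at 41.2 and 40.8 CPM in WT and at 22.4 and 26.0 CPM in GIGYF1/2-null. Both falls passed the test described below. Footprints on GIGYF1 went from 8.69 and 6.72 CPM in WT to 1.70 and 2.74 CPM in GIGYF1/2-null (edgeR adjusted p = 0.0120, a call lost without WT library 1). Of the 20 tested genes nearest to GIGYF1 on chromosome 7, 8 also fell in GIGYF1/2-null mRNA and 0 rose, beside 6.75% of all genes that fell. Their median log2 change was -0.40. Whether the GIGYF1 mRNA fall is particular to this gene was not tested. GIGYF2 mRNA did not fall: it was at 81.2 and 66.1 CPM in WT and at 96.7 and 81.8 CPM in GIGYF1/2-null. Both GIGYF1/2-null libraries lay above both WT libraries, but the change was not called (log2 change 0.28 ± 0.11, edgeR adjusted p = 0.124). The mRNA counts of this gene therefore do not show its loss. GIGYF2 mRNA was called higher in GIGYF1/2-null than in 4EHP-null (0.38 ± 0.11, edgeR adjusted p = 0.0222). Its footprints were lowest on average in GIGYF1/2-null, at 81.6 and 51.7 CPM. They were at 90.8 and 63.9 CPM in WT and 110 and 86.2 CPM in 4EHP-null. The WT and GIGYF1/2-null footprint libraries overlapped, and no footprint change of GIGYF2 was called. The name GIGYF1/2-null is therefore used below as a label, and loss of GIGYF2 is not shown by these counts. All 7 HEK293 markers were detected in mRNA, with summed levels of 1010 and 1161 CPM in WT, 708 and 830 CPM in 4EHP-null and 892 and 1138 CPM in GIGYF1/2-null. Among them 1 rose (KRT8) and 3 fell (NEFM, NEFL and EYA1) in 4EHP-null mRNA, by 3.36 on the log2 scale for EYA1, and 4 rose (KRT8, KRT18, NEFL and NEFM) and 1 fell (VIM) in GIGYF1/2-null mRNA. The 6 leukocyte markers summed to 2.38 to 3.60 CPM over the 6 mRNA libraries with PTPRC at 0 in every library, and the 5 hepatocyte and epithelial markers to 5.32 to 10.1 CPM with KRT19 at 0. Of these markers 5 could be tested in mRNA and EPCAM was called, from 1.53 and 2.18 CPM in WT to 4.40 and 3.51 CPM in GIGYF1/2-null mRNA (log2 change 1.08 ± 0.27, adjusted p = 0.0198). Whether these differences between the cells bear on the NMD factors was not tested.

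All 9 NMD factors passed the filter on low counts in both assays, with 624 to 9990 counts per library in RNA-seq and 70 to 1412 in Ribo-seq. Per kilobase of the gene width that the authors deposited, the WT mRNA levels ran from 57.7 ± 1.6 CPM/kb (SD, n = 2) for SMG5 and 24.3 ± 0.85 for UPF3B down to 6.79 ± 0.88 for UPF2 and 4.77 ± 0.095 for SMG6. SMG8 and UPF1, at 22.1 ± 0.74 and 21.6 ± 1.1 CPM/kb, could not be ordered, and neither could SMG9, SMG1 and UPF3A, at 11.9 ± 1.0, 11.1 ± 0.39 and 10.9 ± 0.11, because their WT libraries overlapped. The footprint levels had another order. UPF3B and UPF1 led with 31.5 ± 2.7 and 27.3 ± 3.4 CPM/kb and overlapped, SMG8 followed at 21.2 ± 0.072, SMG9 and SMG5 overlapped at 10.6 ± 2.5 and 9.43 ± 0.0023, and SMG6 was last at 2.70 ± 0.49. SMG5 thus had the highest mRNA level of the 9 in WT cells but lay below UPF3B, UPF1 and SMG8 in footprints.

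**Figure D1:**
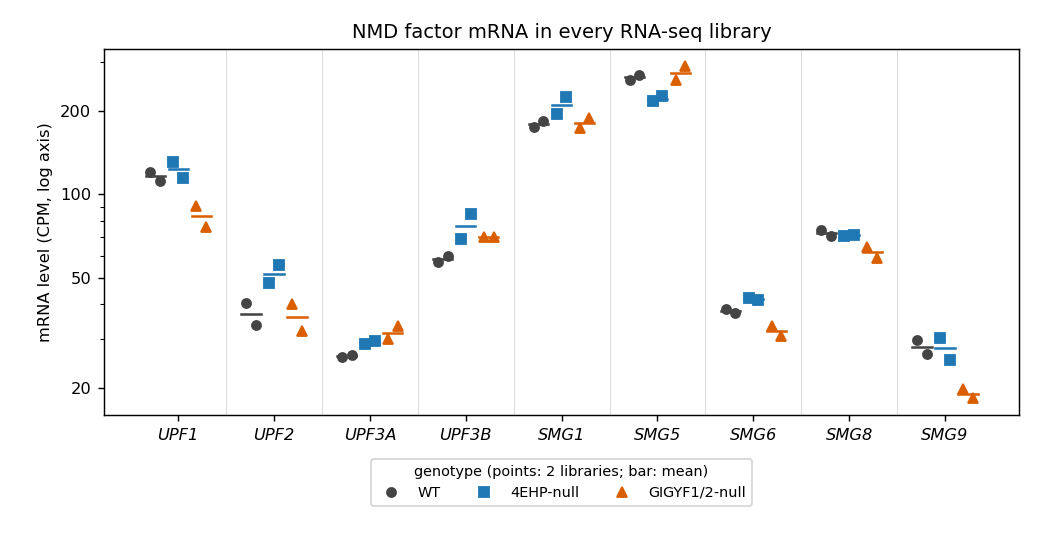
mRNA level in CPM (log axis) of the 9 NMD factors in each RNA-seq library, with 2 points and a mean bar per genotype. The GIGYF1/2-null points of UPF1 (90.8 and 76.0 CPM) and SMG9 (19.8 and 18.3 CPM) lie below all WT points, and the 4EHP-null points of UPF2 and UPF3B lie above all WT points.

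Changes between genotypes were tested on the counts with the quasi-likelihood F-test of edgeR over all genes of an assay and called at a Benjamini-Hochberg adjusted p under 0.05. They are given on the log2 scale with their standard error after the ± sign, from 2 libraries per genotype. Both knockouts were set against the same WT libraries, so the values of the 2 comparisons are not independent of each other. In bulk libraries a change in every cell and a change in a fraction of the cells cannot be told apart.

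UPF1, the helicase at the centre of the pathway, was lower in the libraries labelled GIGYF1/2-null. Its mRNA was at 120.3 and 112 CPM in WT, 131 and 115 CPM in 4EHP-null, and 90.8 and 76.0 CPM in GIGYF1/2-null. Both GIGYF1/2-null libraries were below every other library, whereas the WT and 4EHP-null libraries overlapped. UPF1 mRNA fell by 0.48 ± 0.10 on the log2 scale in GIGYF1/2-null against WT (0.72-fold, edgeR adjusted p = 0.00840) and by 0.56 ± 0.10 against 4EHP-null (adjusted p = 0.00169). In 4EHP-null against WT the change was 0.08 ± 0.10, with a 95% interval of -0.14 to 0.30. The call against WT was lost without WT library 1 (adjusted p = 0.0882). Footprints on UPF1 were at 159.8 and 134 CPM in WT, 138 and 145 CPM in 4EHP-null and 110.3 and 76.7 CPM in GIGYF1/2-null, again with the GIGYF1/2-null libraries lowest. The footprint change was -0.65 ± 0.17 against WT, which missed the threshold (adjusted p = 0.0810), and -0.60 ± 0.17 against 4EHP-null, which passed it (adjusted p = 0.0459). The latter call was lost in 4 of the 6 fits that left out a library (WT 2, either 4EHP-null library or GIGYF1/2-null 2), with upper-quartile scaling and in the fit of those genotypes alone. On log2 CPM centred within each assay, the genes whose levels over the 12 libraries were most like those of UPF1 were NOC2L, SRRT and AMOTL2 (Pearson r of 0.985, 0.981 and 0.980 among 13257 genes), a description in which libraries of a genotype share their cells.

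UPF2, the adaptor between UPF1 and the UPF3 proteins, was higher in the libraries labelled 4EHP-null. Its mRNA was at 40.5 and 33.6 CPM in WT, 47.6 and 55.3 CPM in 4EHP-null, and 40.2 and 32.0 CPM in GIGYF1/2-null. The 4EHP-null libraries were above all others, and the WT and GIGYF1/2-null libraries overlapped. UPF2 mRNA rose by 0.48 ± 0.13 on the log2 scale in 4EHP-null against WT (1.39-fold, edgeR adjusted p = 0.0331). It was lower by -0.51 ± 0.13 in GIGYF1/2-null against 4EHP-null (adjusted p = 0.0144), and its change in GIGYF1/2-null against WT was -0.04 ± 0.13 (95% interval -0.32 to 0.25). Footprints on UPF2 were at 46.4 and 41.5 CPM in WT, 70.7 and 57.4 CPM in 4EHP-null and 39.9 and 28.5 CPM in GIGYF1/2-null, and no libraries of different genotypes overlapped. Between the knockouts the footprints of UPF2 differed by -0.91 ± 0.18 (0.53-fold, adjusted p = 0.00900), the largest called footprint difference among the 9 genes, while against WT they changed by 0.54 ± 0.18 (adjusted p = 0.132) and -0.37 ± 0.18 (adjusted p = 0.324). The mRNA call against WT was lost without either WT library or without 4EHP-null library 2, the mRNA call between the knockouts without 4EHP-null library 2 or GIGYF1/2-null library 2, and the footprint call without 4EHP-null library 1.

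UPF3B and its paralog UPF3A link UPF2 to the exon junction complex, UPF3B being the more active form. UPF3B mRNA was at 57.0 and 59.9 CPM in WT, 68.8 and 84.5 CPM in 4EHP-null, and 70.1 and 70.3 CPM in GIGYF1/2-null, so that every knockout library was above both WT libraries. UPF3B mRNA rose by 0.39 ± 0.10 on the log2 scale in 4EHP-null against WT (1.31-fold, edgeR adjusted p = 0.0222), a call lost without either WT library or without 4EHP-null library 2. The change in GIGYF1/2-null was 0.26 ± 0.10 (adjusted p = 0.113). UPF3A mRNA was at 25.9 and 26.3 CPM in WT, 28.7 and 29.6 CPM in 4EHP-null and 29.9 and 33.3 CPM in GIGYF1/2-null, also with every knockout library above WT, and its changes of 0.16 ± 0.11 and 0.28 ± 0.11 did not pass (adjusted p = 0.363 and 0.113). Footprints on UPF3B spread widely within a genotype, at 98.9 and 59.8 CPM in 4EHP-null and 106 and 70.2 CPM in GIGYF1/2-null around WT values of 80.3 and 71.2 CPM. All 3 genotypes overlapped, and the 95% interval of the UPF3B footprint change was -0.45 to 0.58 in 4EHP-null, which holds both 0 and the size of the mRNA rise. Footprints on UPF3A were at 12.03 and 12.2 CPM in WT, 11.02 and 11.9 CPM in 4EHP-null and 14.7 and 12.9 CPM in GIGYF1/2-null, with no called change.

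SMG1, the kinase that phosphorylates UPF1, did not pass the edgeR test described above in any comparison. Its mRNA was at 174 and 183 CPM in WT, 195 and 223 CPM in 4EHP-null and 174 and 187 CPM in GIGYF1/2-null, with only the 4EHP-null libraries clear of WT. The change in 4EHP-null was 0.23 ± 0.09 (edgeR adjusted p = 0.110) and in GIGYF1/2-null 0.02 ± 0.09 (95% interval -0.17 to 0.20). Footprints on SMG1 ranged from 106 to 126 CPM over the 6 libraries. SMG1 has several partial copies in the genome, and 6 of the 7 pseudogenes listed were in the tables. These summed to 20.04 to 24.8 CPM in the mRNA libraries but to 137 to 184 CPM in the Ribo-seq libraries, more than SMG1 itself, and in WT library 1 SMG1P1, SMG1P2 and SMG1P3 held 294, 275 and 278 footprint counts. SMG1P7 was the 1 pseudogene called lower in 4EHP-null against WT, by -0.82 ± 0.21 in mRNA (adjusted p = 0.0233) and -0.95 ± 0.21 in footprints (adjusted p = 0.0323), calls lost when any 1 of the WT and 4EHP-null libraries was left out. No label or header records how short reads were divided among such copies, and the footprint level of SMG1 is uncertain for that reason.

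SMG9 and SMG8 form a complex with SMG1 that holds the kinase in check. SMG9 mRNA was at 29.8 and 26.4 CPM in WT, 30.3 and 25.2 CPM in 4EHP-null, and 19.8 and 18.3 CPM in GIGYF1/2-null. The GIGYF1/2-null libraries were below all others, and the WT and 4EHP-null ranges overlapped, the same arrangement as for UPF1. SMG9 mRNA fell by 0.56 ± 0.12 on the log2 scale in GIGYF1/2-null against WT (0.68-fold, edgeR adjusted p = 0.0100) and by 0.55 ± 0.12 against 4EHP-null (adjusted p = 0.00628). In 4EHP-null the change was -0.01 ± 0.12 (95% interval -0.27 to 0.25). The call against WT was lost without WT library 1 or GIGYF1/2-null library 2, and the call between the knockouts without 4EHP-null library 1. Footprints on SMG9 were at 29.1 and 20.9 CPM in WT, 24.1 and 21.7 CPM in 4EHP-null and 18.2 and 11.9 CPM in GIGYF1/2-null. The GIGYF1/2-null libraries were lowest, but the changes of -0.73 ± 0.22 against WT and -0.62 ± 0.22 against 4EHP-null missed the threshold (adjusted p = 0.108 and 0.100). SMG8 mRNA was at 73.9 and 70.5 CPM in WT, 70.8 and 71.02 CPM in 4EHP-null and 64.2 and 59.0 CPM in GIGYF1/2-null, a change of -0.23 ± 0.08 in GIGYF1/2-null that was not called (adjusted p = 0.0985). Its footprints were at 69.1 and 69.4 CPM in WT, 88.8 and 79.2 CPM in 4EHP-null and 68.6 and 63.8 CPM in GIGYF1/2-null, with no called change.

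The promoters of the genes that changed against WT are shown because UPF1 and SMG9 were both lower in one knockout and UPF2 and UPF3B both higher in the other. RefSeq start sites (GRCh38.p14) matched 8 of the 9 genes by symbol, all but SMG8, and each sequence is the 250 bases before the start, 5′ to 3′ on the strand of the gene. Capitals mark exact matches, on either strand, to any of 6 motifs: the GC box GGGCGG, the CCAAT box CCAAT, the E-box CACGTG, the ETS core CCGGAAG, the cyclic AMP response element TGACGTCA and the palindrome of NRF1. Adjacent matches can share bases. Over 35116 promoters of the same length, 42.6% held the GC box, 32.0% the CCAAT box, 6.34% the E-box, 8.52% the ETS core, 1.65% the cyclic AMP response element and 1.03% the NRF1 palindrome. The windows are UPF1 at chr19:18831709-18831958 on the plus strand, and SMG9 at chr19:43754963-43755212, UPF2 at chr10:12043171-12043420 and UPF3B at chrX:119852964-119853213 on the minus strand.
UPF1: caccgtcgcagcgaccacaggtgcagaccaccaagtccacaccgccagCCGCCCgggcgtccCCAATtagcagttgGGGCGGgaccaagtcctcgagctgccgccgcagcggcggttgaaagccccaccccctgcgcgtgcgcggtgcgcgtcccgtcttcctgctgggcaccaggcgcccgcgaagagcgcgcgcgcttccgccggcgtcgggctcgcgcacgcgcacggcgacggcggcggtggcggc
SMG9: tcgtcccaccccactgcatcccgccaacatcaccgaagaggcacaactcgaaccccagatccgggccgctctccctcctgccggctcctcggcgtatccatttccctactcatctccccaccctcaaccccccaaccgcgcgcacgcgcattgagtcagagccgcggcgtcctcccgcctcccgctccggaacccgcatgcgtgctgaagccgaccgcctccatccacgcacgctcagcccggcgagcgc
UPF2: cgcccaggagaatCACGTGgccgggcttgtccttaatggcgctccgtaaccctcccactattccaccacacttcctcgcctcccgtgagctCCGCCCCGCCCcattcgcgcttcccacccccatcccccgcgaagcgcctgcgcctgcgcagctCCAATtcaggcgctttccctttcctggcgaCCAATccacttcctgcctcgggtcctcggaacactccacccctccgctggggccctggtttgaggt
UPF3B: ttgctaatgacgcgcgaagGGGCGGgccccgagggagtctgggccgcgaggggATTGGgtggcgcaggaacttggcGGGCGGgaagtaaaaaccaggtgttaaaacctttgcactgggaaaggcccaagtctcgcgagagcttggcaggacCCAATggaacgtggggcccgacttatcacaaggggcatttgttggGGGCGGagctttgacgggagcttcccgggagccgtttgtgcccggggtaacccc
UPF1 and SMG9 were both lower in GIGYF1/2-null mRNA. The SMG9 window held no exact match to any of the 6 motif strings, and the UPF1 window held 2 GC boxes and 1 CCAAT box. Both windows held the stretch cgcgcacgcgca, which resembles the NRF1 palindrome but is not identical to it. Such near matches were not searched for, so a shared NRF1-like site is not excluded, and their share over all promoters was not counted. UPF2 held 2 GC boxes, 2 CCAAT boxes and 1 E-box, and UPF3B held 3 GC boxes and 2 CCAAT boxes. A match describes the letters only, and no binding was measured.

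SMG5 and SMG6 act after UPF1 has been phosphorylated. SMG6, the endonuclease, had mRNA levels of 38.4 and 37.3 CPM in WT, 42.2 and 41.3 CPM in 4EHP-null, and 33.4 and 30.7 CPM in GIGYF1/2-null. The 3 genotypes did not overlap, and the WT libraries lay between the knockouts. Against WT the changes were 0.14 ± 0.10 in 4EHP-null and -0.24 ± 0.10 in GIGYF1/2-null and neither was called (edgeR adjusted p = 0.385 and 0.148), while between the knockouts SMG6 mRNA was lower by -0.38 ± 0.10 in GIGYF1/2-null (adjusted p = 0.0143). Footprints on SMG6 were at 24.2 and 18.7 CPM in WT, 21.6 and 22.3 CPM in 4EHP-null and 15.5 and 10.97 CPM in GIGYF1/2-null, and they were lower by -0.74 ± 0.20 between the knockouts (adjusted p = 0.0345). The change against WT, -0.70 ± 0.20, was not called (adjusted p = 0.0940). The mRNA call was lost without 4EHP-null library 1 or GIGYF1/2-null library 2, and the footprint call without either 4EHP-null library or GIGYF1/2-null library 2. In the RefSeq annotation SRR overlaps the span of SMG6, and it had 2325 to 3305 RNA-seq counts per library against 1050 to 1387 for SMG6. Reads from the overlap cannot be assigned here because no label or header gives the strand setting of the counting.

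SMG5, which bridges phosphorylated UPF1 to decay enzymes, was the one NMD factor with lower mRNA in the 4EHP-null libraries than in all WT libraries. It was at 258 and 269 CPM in WT, 216 and 226 CPM in 4EHP-null, and 257 and 290.2 CPM in GIGYF1/2-null. The change in 4EHP-null against WT, -0.25 ± 0.08, missed the threshold (edgeR adjusted p = 0.0654). It was called with no filter on low counts, with the replicate number as a block and in the fit of those genotypes alone. SMG5 mRNA was higher by 0.31 ± 0.08 in GIGYF1/2-null than in 4EHP-null (1.24-fold, edgeR adjusted p = 0.0177). That call was lost without either 4EHP-null library or without GIGYF1/2-null library 2. Footprints on SMG5 were at 43.0 and 43.0 CPM in WT, 37.2 and 36.4 CPM in 4EHP-null and 44.6 and 43.7 CPM in GIGYF1/2-null, with no called change.

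Counted over the 9 genes, 2 rose (UPF2 and UPF3B) and 0 fell in mRNA of 4EHP-null against WT, where 13.1% of all 15637 genes tested were called (6.47% up and 6.63% down). In GIGYF1/2-null against WT 0 rose and 2 fell (UPF1 and SMG9), beside 11.9% of all genes called (5.2% up and 6.75% down). Between the knockouts 1 was higher in GIGYF1/2-null (SMG5) and 4 lower (UPF1, UPF2, SMG6 and SMG9), beside 24.4% of all genes called (11.4% up and 13% down). The medians of the 9 log2 changes were 0.14, -0.04 and -0.21 in these comparisons, beside -0.0030, 0.0052 and 0.0024 over all genes. The count of 2 in 4EHP-null became 0 without WT library 1, WT library 2 or 4EHP-null library 2, the count of 2 in GIGYF1/2-null became 0 without WT library 1 and 1 without GIGYF1/2-null library 2, and the count of 5 between the knockouts became 2 without 4EHP-null library 1 or GIGYF1/2-null library 2 and 3 without 4EHP-null library 2. Without GIGYF1/2-null library 1 or 2, SMG5 was called lower in 4EHP-null as well, making that count 3.

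In libraries rather than calls, 6 of the 9 genes had knockout mRNA libraries clear of both WT libraries in 4EHP-null (5 above and 1 below, beside 57.4% of all genes clear in either direction), 6 in GIGYF1/2-null (2 above and 4 below, beside 53.1%), and 8 were clear between the knockouts (beside 62.4%). In footprints 0 of 9 were called against WT in either knockout, beside 3.04% of the 14722 genes tested in 4EHP-null (1.58% up and 1.46% down) and 2.09% in GIGYF1/2-null (0.727% up and 1.36% down). At an unadjusted p under 0.05, edgeR counted 1 (UPF2) and 3 (UPF1, SMG6 and SMG9). The share of all genes at an unadjusted p was not counted, so such counts here and below have no background. DESeq2 called 0 and 1 (UPF1) at its adjusted threshold, beside 323 and 307 of the 14722 genes. Between the knockouts 3 footprint levels were lower in GIGYF1/2-null (UPF1, UPF2 and SMG6) and 0 higher, beside 10.8% of all genes called (3.98% up and 6.8% down). That count of 3 became 0 without 4EHP-null library 1 and 1 without 4EHP-null library 2 or GIGYF1/2-null library 2. The footprint libraries were clear of WT for 5 genes in 4EHP-null (beside 51.7% of all genes) and 7 in GIGYF1/2-null (beside 47.9%), and clear between the knockouts for 8 (beside 53.9%). Both libraries of one knockout lay above WT and both of the other below it for 1 of the 9 genes in mRNA (beside 12% of all genes) and 4 in footprints (beside 9.16%). The signs of the mRNA and footprint changes were alike for 6, 9 and 8 of the 9 genes in the 3 comparisons. The share of all genes with like signs was not counted, so these counts describe the 9 genes only.

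**Figure D2:**
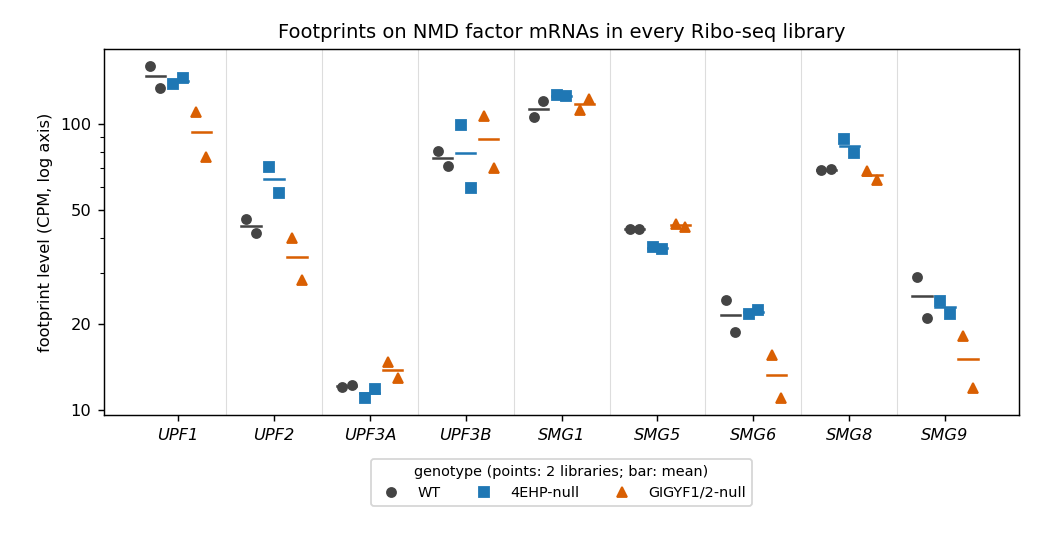
Footprint level in CPM (log axis) of the 9 NMD factors in each Ribo-seq library, with 2 points and a mean bar per genotype. UPF2 separates the 3 genotypes, with the 4EHP-null libraries at 70.7 and 57.4 CPM and the GIGYF1/2-null libraries at 39.9 and 28.5 CPM, while UPF3B spreads from 59.8 to 106 CPM with all genotypes overlapping.

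**Figure D3:**
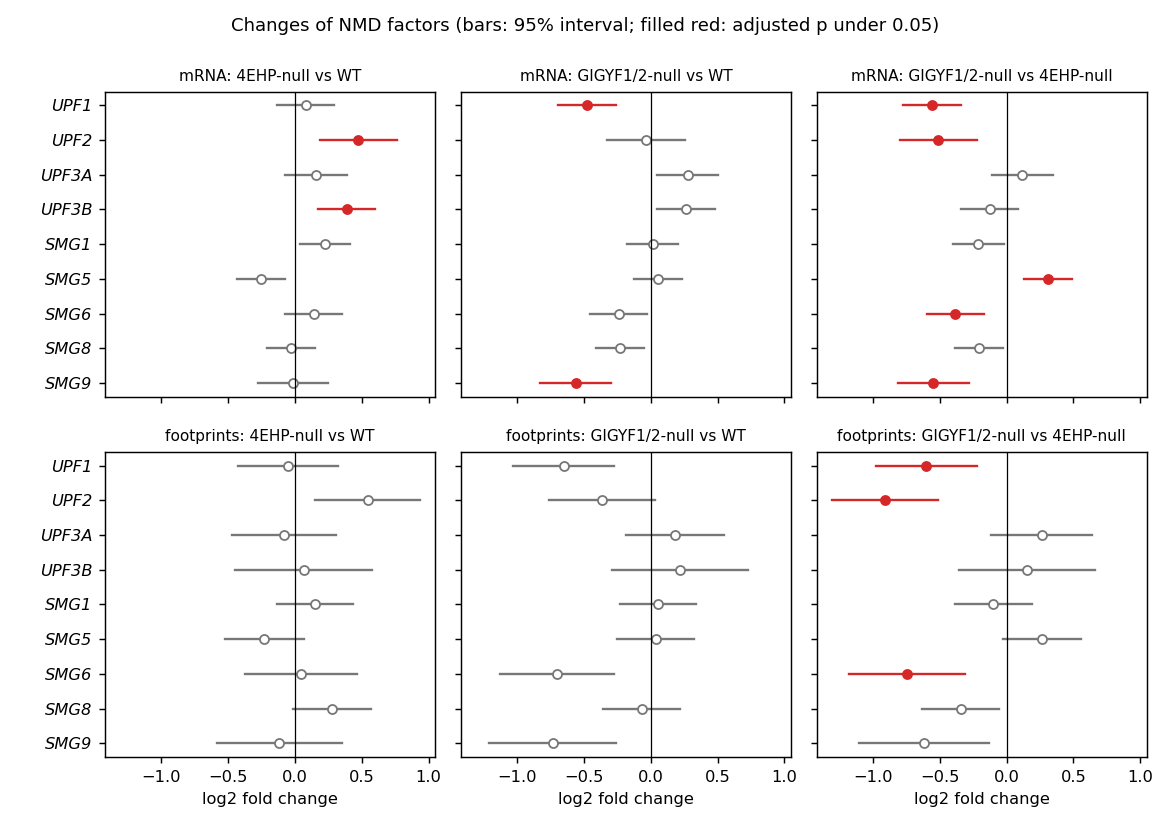
Log2 fold change of each NMD factor with its 95% interval, for mRNA (upper row) and footprints (lower row) in the 3 comparisons, with adjusted p under 0.05 filled red. Red points are UPF2 and UPF3B in 4EHP-null mRNA, UPF1 and SMG9 in GIGYF1/2-null mRNA, and 5 mRNAs and 3 footprint levels between the knockouts.

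The authors' deposited table of 4EHP-null against WT in RNA-seq gave adjusted p under 0.05 for 3 of the 9 genes, UPF2, UPF3B and SMG5 (SMG5 log2 change -0.26, adjusted p = 0.0323). For GIGYF1/2-null in RNA-seq the authors' deposited table gave 3, UPF1, SMG9 and UPF3A (UPF3A log2 change 0.29, adjusted p = 0.0365). In Ribo-seq the authors' deposited table gave 1 in 4EHP-null (UPF2, log2 change 0.60, adjusted p = 0.0296) and 2 in GIGYF1/2-null (UPF1, -0.62, adjusted p = 0.0365, and SMG9, -0.70, adjusted p = 0.0284). All of these changes had the same sign in the fits above. For translation efficiency the authors' deposited tables gave 0 of the 9 in each knockout.

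The ratio of footprint CPM to mRNA CPM differed among the NMD factors. In WT cells it was highest for UPF3B, UPF1 and UPF2, at 1.298 ± 0.15, 1.26 ± 0.094 and 1.19 ± 0.063 (SD, n = 2), against a median of 0.718 over 13251 genes. SMG8 and SMG9 followed at 0.960 ± 0.036 and 0.884 ± 0.13. SMG1, SMG6 and UPF3A were under the median, at 0.632 ± 0.036, 0.566 ± 0.091 and 0.464 ± 7.4e-05. SMG5 was lowest at 0.163 ± 0.0046, a value under which 3.28% of genes lay. The SMG5 ratio was 0.167 ± 0.0077 in 4EHP-null and 0.162 ± 0.016 in GIGYF1/2-null libraries. The ratio counts footprints over the whole gene and was not corrected for the coding share of each mRNA. Its order among genes is therefore not an order of ribosome density. It carries the same uncertainty for SMG1 as its footprint level, and for SMG6 the uncertainty from the overlap with SRR.

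Tested as the footprint change minus the mRNA change over all 12 libraries and 13257 genes, translation efficiency was called for 0 of the 9 genes in 4EHP-null, in GIGYF1/2-null and between the knockouts, beside 0.0981% of all genes in the first (0.0905% up and 0.00754% down), 0.0453% in the second (0.0377% up and 0.00754% down) and 0.181% in the third (0.0453% up and 0.136% down). At an unadjusted p under 0.05, edgeR counted 1, 1 and 0, and DESeq2 and limma-voom also called 0 in each. The gene counted in 4EHP-null was SMG8, at 0.33 ± 0.14 (95% interval 0.03 to 0.62, adjusted p = 0.631), whose ratio was 0.960 ± 0.036 in WT and 1.18 ± 0.099 in 4EHP-null. The gene counted in GIGYF1/2-null was SMG6, at -0.45 ± 0.21 (95% interval -0.90 to -0.00087, adjusted p = 0.99998), with a ratio of 0.411 ± 0.076 in that genotype against 0.566 ± 0.091 in WT. For UPF1 the change was -0.17 ± 0.21 in GIGYF1/2-null, with an interval of -0.62 to 0.28 that holds 0 and changes of either sign.

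**Figure D4:**
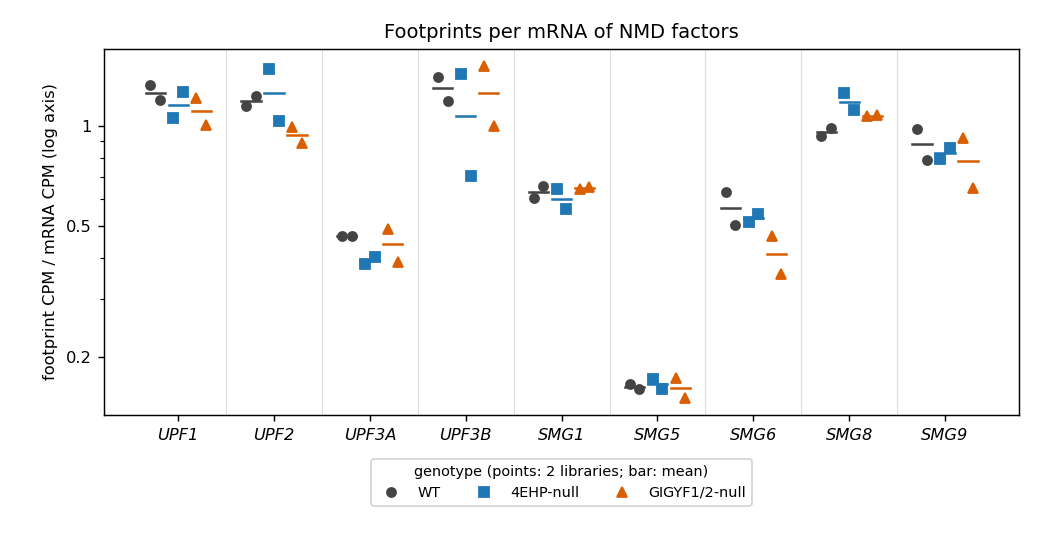
Footprint CPM divided by mRNA CPM (log axis) for the 9 NMD factors in each genotype, with 2 points and a mean bar each. SMG5 lies near 0.16 in all genotypes and UPF1, UPF2 and UPF3B near or above 1 in WT.

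The counts of 4 further gene lists stand beside the shares of all genes called that are given above: 13.1% in 4EHP-null, 11.9% in GIGYF1/2-null and 24.4% between the knockouts in mRNA, and 3.04%, 2.09% and 10.8% in footprints. Of 10 further factors linked to NMD (NBAS, DHX34, PNRC2, ICE1, NCBP1, NCBP2, RUVBL1, RUVBL2, MOV10 and STAU1), 0 rose and 1 fell in mRNA of 4EHP-null against WT. This was PNRC2, which couples UPF1 to decapping, at 151 and 138 CPM in WT and 109 and 101 CPM in 4EHP-null (log2 change -0.46 ± 0.08, edgeR adjusted p = 0.00298). That call was lost without 4EHP-null library 2. In GIGYF1/2-null against WT 0 of 10 changed (1 at an unadjusted p under 0.05 in edgeR, and 1 called without GIGYF1/2-null library 1 or with no filter on low counts), and between the knockouts PNRC2 and the cap-binding subunit NCBP2 were higher in GIGYF1/2-null, by 0.26 ± 0.08 and 0.24 ± 0.08 (adjusted p = 0.0329 and 0.0317). Of the list, 1 was called higher and 1 lower without either WT library and in the fit of the 2 knockouts alone, 1 higher and 0 lower without GIGYF1/2-null library 2, 0 higher and 2 lower without GIGYF1/2-null library 1, and 0 without either 4EHP-null library. DESeq2, limma-voom and the fit with no filter on low counts called 2 higher and 1 lower. In footprints 1 of 10 was called, NCBP1 lower in GIGYF1/2-null than in 4EHP-null (-0.44 ± 0.13, adjusted p = 0.04999), a value at the threshold that held in 1 of the 6 fits that left out a library (the one without GIGYF1/2-null library 1) and that was also lost with upper-quartile scaling, with DESeq2 and in the fit of the 2 knockouts alone.

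Of 12 exon junction complex genes, which mark the splice sites that NMD reads, 1 fell in mRNA of each knockout against WT. In 4EHP-null this was PYM1, a factor that removes the complex during translation, at -0.38 ± 0.11 (edgeR adjusted p = 0.0447), a call lost when any 1 of the WT and 4EHP-null libraries was left out. In GIGYF1/2-null it was SAP18, a subunit of the peripheral ASAP complex, at 114 and 116 CPM in WT and 58.1 and 57.4 CPM in GIGYF1/2-null (-0.99 ± 0.08, adjusted p = 1.31e-05), with footprints lower by -0.94 ± 0.14 (adjusted p = 0.00604, a call lost without either WT library). SAP18 was also the 1 gene of the list called between the knockouts, lower in GIGYF1/2-null in mRNA (-0.81 ± 0.08, adjusted p = 1.81e-05) and in footprints (-0.71 ± 0.14, adjusted p = 0.00804, lost without 4EHP-null library 1). Without GIGYF1/2-null library 1, 2 genes of the list were lower in GIGYF1/2-null against WT and against 4EHP-null, in mRNA and in footprints, and with no filter on low counts 2 were lower in mRNA in both comparisons. With upper-quartile scaling 1 gene was called higher in mRNA between the knockouts beside the fall of SAP18. Of the 20 tested genes nearest to SAP18 on chromosome 13, 10 on each side, 15 also fell in GIGYF1/2-null, beside 6.75% of all genes, with a median log2 change of -0.88. Among the 20 genes nearest to UPF1 0 changed in GIGYF1/2-null (median -0.03), and among those nearest to SMG9 2 rose and 0 fell (median 0.19). Around UPF2 and UPF3B the median changes in 4EHP-null were 0.10 and -0.17. Of 20 neighbours each, 3 rose and 1 fell around UPF2, and 1 rose and 0 fell around UPF3B, beside 6.47% up and 6.63% down over all genes. Between the knockouts the median around SMG6 was -0.16, with 2 of 20 higher and 4 lower, beside 11.4% and 13% of all genes. It was 0.09 around UPF1, 0.01 around UPF2, 0.01 around SMG5 and 0.19 around SMG9.

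Of 8 genes for translation termination and poly(A) binding, 7 could be tested in mRNA and edgeR called 0 in any comparison (unadjusted p under 0.05 for 1, 0 and 1). In 4EHP-null against WT 1 was called lower with DESeq2, with no filter on low counts and in the fit of those genotypes alone, and between the knockouts 1 was called lower with no filter. In fits without GIGYF1/2-null library 1 the count was 1 in each comparison, and in 4EHP-null against WT it was 1 without GIGYF1/2-null library 2 as well. GSPT2, a near copy of the release factor gene GSPT1, was listed at 0 counts in all 6 RNA-seq libraries but had 53 to 83 footprint counts, so its level is uncertain. In footprints edgeR called 0 of 8 against WT (unadjusted 2 and 2, with 2 called in GIGYF1/2-null without its library 1 and 1 with no filter), and 3 were lower in GIGYF1/2-null than in 4EHP-null: PABPC1 (-0.91 ± 0.16, adjusted p = 0.00558) and PABPC4 (-0.62 ± 0.16, adjusted p = 0.0313), which coat the poly(A) tail, and GSPT2 (-0.92 ± 0.24, adjusted p = 0.0302). That count became 0 without 4EHP-null library 1 and 1 without 4EHP-null library 2 or GIGYF1/2-null library 2, and the GSPT2 call was also lost with DESeq2. PABPC1 was also the 1 gene of the list called in translation efficiency, lower by -1.12 ± 0.20 in GIGYF1/2-null than in 4EHP-null (adjusted p = 0.0379), a call that held in 1 of the 6 fits that left out a library and was lost with at least 10 counts in every library and in the fit of the 2 knockouts alone. The median log2 footprint change of the 8 was -0.33 between the knockouts, beside 0.026 over all genes.

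A list of 18 transcripts reported as NMD substrates was followed next to the factors. The counts are per gene and do not separate the transcript forms of a gene or its synthesis from its decay. They are therefore not a measure of NMD activity, which was not tested. In mRNA of 4EHP-null against WT 2 rose and 6 fell, beside 6.47% up and 6.63% down over all genes, with a median of -0.11 beside -0.0030 over all genes. The stress-response transcription factor ATF3 rose from 26.6 and 26.5 CPM to 41.0 and 51.8 CPM (0.80 ± 0.12, edgeR adjusted p = 0.00118), and the cell-cycle inhibitor CDKN1A rose by 0.51 ± 0.13 (adjusted p = 0.0231), a call lost when any 1 of the WT and 4EHP-null libraries was left out. The 3 with the smallest adjusted p among those that fell are hosts of small nucleolar RNAs: GAS5 went from 151 and 141 CPM to 90.1 and 95.6 CPM (-0.65 ± 0.09, adjusted p = 0.000479), ZFAS1 changed by -0.56 ± 0.09 (adjusted p = 0.00172) and SNHG12 by -0.67 ± 0.12 (adjusted p = 0.00363). The others that fell were SNHG1, GADD45B and SRSF2, the last a call also lost with RLE scaling. The count of 8 became 4 without WT library 1 or 4EHP-null library 2 and 5 without WT library 2 or 4EHP-null library 1. ATF3, GAS5, ZFAS1 and SNHG12 passed in each of these fits.

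In GIGYF1/2-null against WT, the comparison in which UPF1 and SMG9 mRNA fell, 0 of the 18 substrates rose and 1 fell, SRSF2 (574 and 608 CPM in WT, 442 and 404 CPM in GIGYF1/2-null, -0.48 ± 0.08, edgeR adjusted p = 0.00247). SRSF2 encodes a splicing factor that controls its own mRNA through NMD. At an unadjusted p under 0.05 edgeR counted 9 of 18, a count without background because the share of all genes at that threshold was not counted. Of the 18 changes 13 were negative, with a median of -0.19 beside 0.0052 over all genes. The count of falls was 3 without GIGYF1/2-null library 1, 5 with no filter on low counts and 2 with DESeq2 or limma-voom. Between the knockouts 4 were higher in GIGYF1/2-null (GAS5, SNHG1, ZFAS1 and SNHG12) and 3 lower (ATF3, GADD45A and CDKN1A). GAS5 differed by 0.71 ± 0.09 (adjusted p = 0.000113) and ATF3 by -0.72 ± 0.12 (adjusted p = 0.00104). The CDKN1A call was lost without either 4EHP-null library or GIGYF1/2-null library 2 and with upper-quartile scaling, GADD45A without 4EHP-null library 1 or GIGYF1/2-null library 1, ZFAS1 without 4EHP-null library 1 or GIGYF1/2-null library 2, and SNHG12 without 4EHP-null library 2.

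In footprints 1 of the 18 changed in 4EHP-null against WT, ATF3, from 9.85 and 8.89 CPM to 17.8 and 18.1 CPM (0.95 ± 0.19, edgeR adjusted p = 0.0185), a call lost when any 1 of the WT and 4EHP-null libraries was left out. In GIGYF1/2-null edgeR called 0 of 18 (4 at an unadjusted p under 0.05) and DESeq2 0. With no filter on low counts the count was 3 in 4EHP-null and 2 in GIGYF1/2-null. Between the knockouts GAS5 and SNHG1 were higher in GIGYF1/2-null and ATF3 lower, by 0.68 ± 0.14, 0.55 ± 0.14 and -0.76 ± 0.18 (adjusted p = 0.0102, 0.0324 and 0.0210). The SNHG1 call was lost whichever library was left out, with DESeq2 and in the fit of the 2 knockouts alone, and the ATF3 call was lost with DESeq2. The 3 calls became 0 without either 4EHP-null library and 1 without GIGYF1/2-null library 2.

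**Figure D5:**
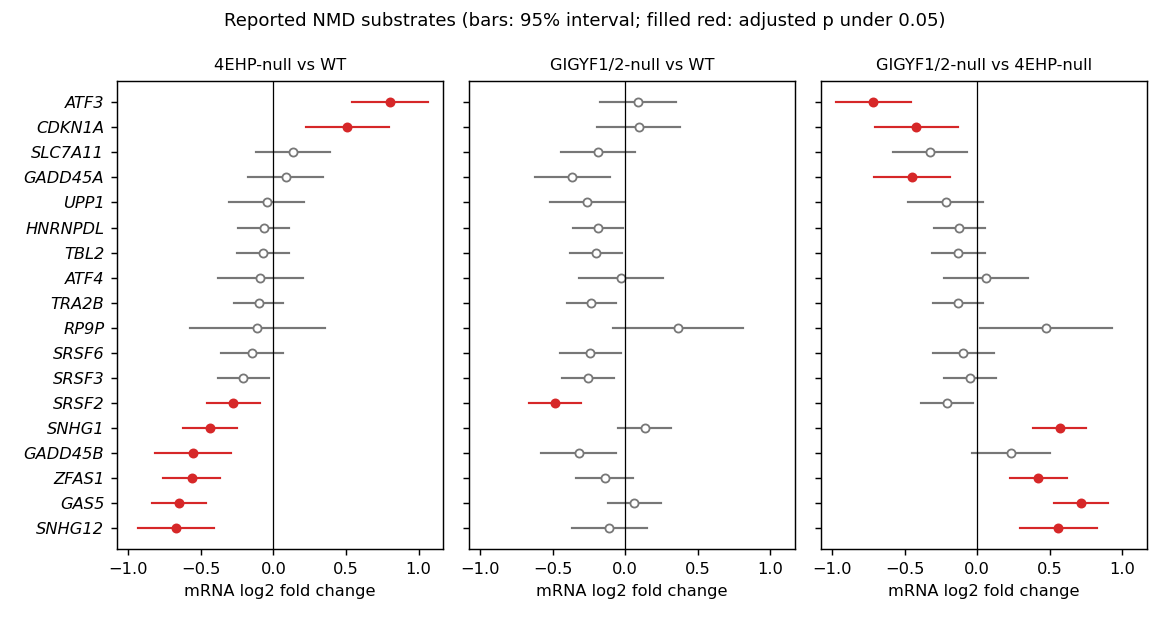
mRNA log2 fold change with 95% interval of the 18 reported NMD substrates in the 3 comparisons, ordered by their change in 4EHP-null, with adjusted p under 0.05 filled red. In 4EHP-null 2 rose and 6 fell, in GIGYF1/2-null only SRSF2 passed the test, and ATF3 (0.80 in 4EHP-null) and GAS5 (-0.65) are near 0 in GIGYF1/2-null.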

How the data were processed

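RNA-seq and Ribo-seq of 3 HEK293T genotypes were analysed from the authors' deposited read counts per gene, which were not normalized. Bowtie2, TopHat2, edgeR and the build hg19 are named in the submitters' processing notes. How reads were counted, with which annotation and strand setting, no label or header records. Tables of the authors' own comparisons with WT hold, per the file headers, log2 fold changes, p-values, a dispersion score per gene and, for translation efficiency, ratios of footprints to mRNA.

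Counts were tested with edgeR 4.0.16 (R 4.3.3, limma 3.58.1): filterByExpr, TMM scaling and a two-sided quasi-likelihood F-test over the 6 libraries of an assay, with Benjamini-Hochberg adjustment over 15637 (RNA-seq) and 14722 (Ribo-seq) genes. Translation efficiency was the interaction over 12 libraries. Groups came from the titles of the samples. The biological coefficient of variation (common to all genes) was 0.0862 for mRNA and 0.119 for footprints. With 2 libraries per genotype, precision rests on this spread shared over genes. Scripts were tested on simulated data. Replicate libraries differed by more than sampling noise. Alternatives were upper-quartile or RLE scaling, no filter, at least 10 counts in every library, DESeq2 1.42.0, limma-voom, the fit of the genotypes compared alone, the replicate number as a block and each library left out. The rule for named genes took the 9 factors, EIF4E2, GIGYF1, GIGYF2, the SMG1 pseudogenes, up to 3 called genes per pathway list, direction and comparison with the smallest adjusted p, and the 3 genes most like UPF1. A further gene of that rule is not reported here. Further genes named to complete a count were chosen after their values were seen. The factors and lists were chosen with earlier results of these data known. Gene order for neighbours came from a RefSeq table (GRCh38.p14) that placed 97.4% of the tested genes.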

Additional observations from a re-analysis of the deposited data

Results flagged for a closer look

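For 5 levels both libraries of one knockout lay above both WT libraries and both libraries of the other knockout lay below them. The difference between the knockouts was then read from the direct comparison of GIGYF1/2-null with 4EHP-null in edgeR. It passed the test for SMG6 mRNA (log2 difference -0.38, adjusted p = 0.0143) and for UPF2 footprints (-0.91, adjusted p = 0.00900). It did not pass for footprints on SMG8 (-0.34, adjusted p = 0.125), SMG5 (0.26, adjusted p = 0.247) and UPF3A (0.26, adjusted p = 0.382). SMG8 and UPF2 footprints were highest in 4EHP-null, and SMG5 and UPF3A footprints were highest in GIGYF1/2-null. These levels were singled out by the position of their libraries, and 12% of all genes in mRNA and 9.16% in footprints had their libraries in such an arrangement, beside 1 and 4 of the 9 factors.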

How the results depend on the processing

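Of the 12 called changes of NMD factors, each kept its direction in all 14 alternatives, and UPF1 mRNA between the knockouts was called in every one. Over these changes 141 of 168 alternative fits kept the call, 25 of the losses came from leaving out a library and 2 from other settings. The replicate numbers are not stated to pair libraries, and deviations of same-numbered libraries correlated at 0.117 to 0.278 in RNA-seq and 0.152 to 0.337 in Ribo-seq. With the replicate block the factors called rose from 2 to 4 in 4EHP-null mRNA (SMG1 and SMG5 gained), from 2 to 5 in GIGYF1/2-null mRNA (UPF3A, UPF3B and SMG8), from 5 to 7 in mRNA between the knockouts (SMG1 and SMG8), from 0 to 1 (UPF2) and from 0 to 3 (UPF1, SMG6 and SMG9) in footprints against WT, and from 3 to 5 in footprints between the knockouts (SMG8 and SMG9). The block raised the calls over all genes as well. In mRNA it called 3571 of 15637 genes in 4EHP-null, 3224 in GIGYF1/2-null and 5362 between the knockouts, against 2048, 1868 and 3820. In footprints it called 1830, 1747 and 3291 of 14722, against 448, 307 and 1587. Of the 18 substrates the block called 5 in GIGYF1/2-null mRNA against 1, and in footprints 5 in 4EHP-null against 1 and 4 in GIGYF1/2-null against 0. With no filter on low counts the footprint counts against WT were 1 in 4EHP-null and 3 in GIGYF1/2-null. DESeq2 called 1 in GIGYF1/2-null footprints, and the fit of the compared genotypes alone called 1 in 4EHP-null footprints.

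With each library left out in turn, the factors called in mRNA ranged from 0 to 3 in 4EHP-null, from 0 to 2 in GIGYF1/2-null and from 2 to 5 between the knockouts, and in footprints from 0 to 1, 0 to 3 and 0 to 4. In translation efficiency 0 were called in every setting. A fit that left a genotype with 1 library assumed that it varied like the others.

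Over all genes, the replicate block moved the mRNA calls from 2048 to 3571 in 4EHP-null and from 1868 to 3224 in GIGYF1/2-null, and leaving out libraries gave 810 to 2537 and 783 to 1819. Between the knockouts leaving out libraries gave 2238 to 3756 calls against 3820. In footprints the 448 calls of 4EHP-null became 1166 with no filter, 1830 with the block and 769 in the fit of those genotypes alone, the 307 of GIGYF1/2-null became 1135, 1747 and 174, and the 1587 between the knockouts became 2405 and 3291 with no filter and the block. Leaving out libraries gave 118 to 751, 59 to 671 and 431 to 1659. Upper-quartile scaling moved the share of higher calls from 43.5% to 53.6% in GIGYF1/2-null mRNA, from 46.8% to 58.7% between the knockouts, from 34.9% to 48.7% in GIGYF1/2-null footprints (24.4% with DESeq2) and from 36.9% to 49.7% between the knockouts. The calls in translation efficiency, 13 in 4EHP-null, 6 in GIGYF1/2-null and 24 between the knockouts, became 88, 30 and 114 with the block, 24, 10 and 37 with DESeq2, and 22, 5 and 14 in the fit of the compared genotypes alone. With no filter the 6 became 10, with at least 10 counts in every library the 24 became 4, and leaving out libraries gave 4 to 53, 1 to 5 and 11 to 46.

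Footprint counts as low as 70 per library for UPF3A, 124 for SMG6 and 135 for SMG9 limit what these genes can show.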
